A study of Mus musculus with 35 samples.

Results

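Baseline translation was read from untreated mouse acute myeloid leukemia cells in which ribosome footprints and mRNA had been sequenced from the same cells. The members are the mice that were given vehicle, were fed standard amino acids, carried the scrambled guide and had both kinds of library: 3 mice, whose libraries bear the numbers 2, 3 and 5. They give 6 of the 35 libraries of the series, 3 of footprints and 3 of RNA. No library of a treated mouse or of a sgOgfod1 mouse was used. Both groups of libraries therefore share 1 genotype (MLL-AF9, sgScramble), 1 diet (AA) and 1 injection (PBS, into the peritoneum), and differ only in the assay.

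The leukemia carries MLL-AF9, a fusion of a histone methyltransferase with a partner of the transcription elongation machinery, and green fluorescent protein (GFP). Per the labels' protocols, GFP-positive cells of 1 terminally ill mouse were grown outside the animal with SCF, IL-3 and IL-6 and injected into male recipients aged 8 to 10 weeks. All 3 mice thus hold descendants of 1 leukemia, so their spread is that between recipients, not between independent leukemias. Bone marrow was taken, red cells were lysed, and GFP-positive cells were sorted. Their lysate, made with cycloheximide to hold ribosomes in place, was split. An aliquot went into Smart-seq2, which copies polyadenylated RNA over its full length. The rest was digested with RNase 1 and spun through a sucrose cushion, and the protected fragments were sequenced by the Ribo-lite protocol.

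A translating ribosome shields a short stretch of the coding sequence from nuclease. The footprints on a gene relative to its mRNA, its translation efficiency, therefore report how many ribosomes an average copy of that mRNA carries. Cells hold this ratio low for some mRNAs by upstream open reading frames, short reading frames in the 5′ leader that occupy scanning ribosomes, or by proteins that bind the leader. Growing cells keep it high for mRNAs that start with a 5′ terminal oligopyrimidine (TOP) tract, which encode ribosomal proteins and elongation factors and answer to the kinase mTORC1.

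Translation efficiency is given here as log2 of a gene's footprint level over its RNA level, both in CPM, its count scaled to a common total of protein-coding counts per library. A value of 0 means an equal share of both libraries and not 1 ribosome per mRNA. Values are edgeR quasi-likelihood estimates with the mouse as a block, ± standard error (SE), over 3 mice. A gene is called high at a log2 ratio of at least 1 and low at a log2 ratio of at most -1, each with an adjusted p under 0.05. A second scale takes footprints as coming from coding sequence and RNA from exons. It divides footprints by coding length and RNA by exon length, which joins the exons of all annotated transcripts of a gene. Where the joined exons exceed the transcript that the cells use, the value per length comes out too high. Percentiles rank a gene among all 13614 tested genes by counts, and per length among the 13519 that have a coding length.

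Total counts ran from 7.9 to 9.47 M (mega) in footprint libraries and from 49.18 to 58.93 M in RNA libraries. Protein-coding genes took 53.73 to 56.62% of footprint counts and 96.44 to 96.7% of RNA counts. Summed levels of 8 leukemia marker genes (Hoxa9, Meis1, Kit, Itgam, Csf1r, Mpo, Elane and Ptprc) were 3775 to 4122 CPM in footprints and 4366 to 5007 CPM in RNA. Markers of B cells (16.7 to 21.6 CPM in footprints and 30.9 to 38.4 CPM in RNA), of T and NK cells (20 to 26.4 and 51.4 to 64.2 CPM) and of megakaryocytes (11.4 to 14.2 and 14.2 to 17.6 CPM) stayed low in both assays. Markers of tissue macrophages, which a myeloid leukemia also expresses in part, summed to 559 to 733 CPM in footprints and 1050 to 1373 CPM in RNA. Erythroid markers went the other way, with 58 to 262 CPM in footprints and 1.72 to 5.76 CPM in RNA. Of 13 erythroid markers 8 were tested, and none of the 8 would have passed the filter on low counts by RNA alone. Stromal and endothelial markers summed to 137 to 205 CPM in footprints and 106 to 124 CPM in RNA. Of 7 tested, 5 would not have passed by RNA alone, among them Kitl, the ligand of Kit, with 104, 51.7 and 106 CPM in footprints, against 0.055, 0.295 and 0.193 CPM in RNA. No direction is read from calls of these markers. Of 11 markers of T and NK cells 3 had 0 footprint counts over the mice, among them Cd3d. Of 11 markers of B cells 2 had 0, among them Vpreb1. Other members were present: Nkg7 averaged 21.3 CPM in footprints and 58.1 CPM in RNA, and Cd79b 17.7 and 30.4 CPM. In such bulk libraries fewer cells of a type and less RNA per cell cannot be told apart, and the part other cells play in the ratios was not tested.

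Footprints are short, and a short read often matches more than 1 gene. Of the 13614 tested genes, 10480 (77%) share at most 5% of the 28-base windows of their coding sequence with other annotated transcripts. These genes took 44.3, 42 and 44.2% of protein-coding footprint counts and 72.4, 73.1 and 72.8% of RNA counts in mice 2, 3 and 5. In footprints 71 genes with at least 50 counts, in 33 groups, had exactly the same counts as another gene in all 3 libraries, against 2 genes in 1 group in RNA. Genes that share 90% or more of their windows had a median log2 ratio of 0.92, and genes that share none had -0.92. A high ratio of a gene with copies is therefore uncertain, and the shared percent of windows is given beside many such genes. Exons can also overlap those of a neighbouring or antisense gene, and whether the counting used strand is not given in the sources used here. Among genes named below this holds for Azin1, Bcl2, Cebpa, Chd4, Clk4, Csf1r, Ddit3, Eef1a1, Eif4a1, Eif4g2, Eif5, Ftl1-ps1, Gapdh, Hoxa9, Hspa8, Il3ra, Itgam, Kmt2a, Mief1, Mpo, mt-Nd1, Oaz1, Rack1, Rps6kb1, Seh1l, Selenop, Serp1, Sptbn1 and the ribosomal protein genes Rpl10a, Rpl15, Rpl21, Rpl27a, Rpl28, Rpl35 and Rpl7a, besides those marked in the text, and their values are uncertain to that extent.

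Of 13614 tested genes, 1565 (11.5%) were called high and 5387 (39.6%) low. Among the 10480 genes with little shared sequence, 730 (6.97%) were called high and 4413 (42.1%) low. Of the high calls, 885 fell on the 2789 genes under 2 CPM in RNA. Of these calls, 724 are on genes that did not reach the filter on low counts (0.379 CPM in all 3 libraries) in RNA and would not have entered the test by RNA alone, so the share of high calls among all genes is partly set by the filter. Of the 10825 genes at 2 CPM or more in RNA, 680 (6.28%) were high and 5180 (47.9%) low. The middle gene of all had a log2 ratio of -0.75, so calls lean low on this scale. With TMM scaling, which centres the bulk of genes, the middle gene stood at -0.04, and 2655 genes were high and 2869 low. Ratios below are therefore best read by their rank. The middle 50% of all genes lay between -1.62 and 0.22, and 9 in 10 between -3.17 and 4.18. For genes with little shared sequence these limits were -1.69 and 0.00, and -3.28 and 2.52. Per length the median of all genes was -1.45.

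**Figure D1:**
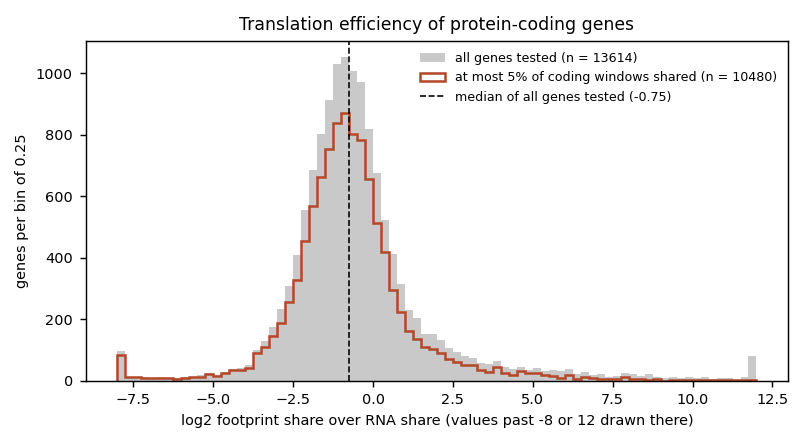
Distribution over genes of the log2 ratio of footprint CPM to RNA CPM, for all tested genes and for genes that share at most 5% of coding windows. The median is -0.75 for all genes and -0.86 for genes with little shared sequence and the curve of genes with little shared sequence ends earlier on the right, with 95% of its genes under 2.52, against 4.18 for all genes.

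The 3 mice gave nearly the same ratios. Medians over all genes were -0.64, -0.88 and -0.67 in mice 2, 3 and 5, the typical SD of a gene over mice was 0.22, and 11642 genes (85.5%) lay on the same side of 0 in all 3 mice. Within a mouse the log levels of footprints and RNA had a Spearman rho of 0.792 to 0.796 across genes, and of 0.858 to 0.861 across genes with little shared sequence. Genes are not independent replicates, and the pairs share library depth and gene length. Between mice the same assay gave a Pearson r of 0.987 to 0.988 for footprints and 0.988 to 0.995 for RNA.

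Ribosomal proteins and elongation factors had the highest median ratios of the lists, histones and markers of other cell types aside. Pyrimidine runs near annotated starts are shown first, since TOP tracts are the sequence feature by which this class is known. RefSeq windows of 25 bases before to 25 after the annotated start (build GRCm38.p6) were at hand for 62 ribosomal protein genes. In 31 of them (50%) a run of at least 8 pyrimidines starting with C lay there, on the strand of the gene, against 2547 of 16528 (15.4%) windows of all genes. The windows of the longest runs among ribosomal protein genes, of Rack1 and Eif3f, which share 5.5% and 1.2% of windows, and of Eef1a1 follow, with the run in capitals.
Rpl27a (chr7:109519170-109519219, + strand): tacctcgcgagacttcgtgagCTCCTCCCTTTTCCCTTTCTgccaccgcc
Rpl7a (chr2:26910782-26910831, + strand): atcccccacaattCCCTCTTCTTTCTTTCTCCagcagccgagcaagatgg
Rpl35 (chr2:39005107-39005156, - strand): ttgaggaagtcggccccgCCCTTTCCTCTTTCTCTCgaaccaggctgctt
Rpl15 (chr14:18270962-18271011, - strand): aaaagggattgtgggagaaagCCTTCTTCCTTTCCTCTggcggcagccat
Rack1 (chr11:48800335-48800384, + strand): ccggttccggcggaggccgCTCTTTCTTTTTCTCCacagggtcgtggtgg
Eif3f (chr7:108934390-108934439, + strand): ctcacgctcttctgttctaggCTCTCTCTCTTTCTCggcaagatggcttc
Eef1a1 (chr9:78481700-78481749, - strand): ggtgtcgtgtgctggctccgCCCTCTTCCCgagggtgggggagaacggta
Such a run is a match of letters in a window and not a measured tract. The window also covers bases before the annotated start, so a run need not lie in the mRNA. Ribosomal protein genes with a run had a median log2 ratio of 1.79 (n = 31) and those without one 1.94 (n = 31). A shorter run, or one at another start of the gene, is not found this way. The groups thus do not stand for genes with and without a TOP tract, and no effect of the tract is read from them.

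Of 83 cytosolic ribosomal protein genes, 63 were called high and 1 low, that is 75.9% high beside 11.5% of all genes and 47.2% of the 689 genes that share 90% or more of their windows. Their median log2 ratio was 1.77, at percentile 88.9 of all genes, and 1.48 per length, at percentile 90.7. Together they took 3.38 ± 0.31% of protein-coding footprint counts and 1.12 ± 0.0827% of RNA counts (SD, n = 3 mice). Rpl10a, a protein of the large subunit, had 439, 517 and 504 CPM in footprints, against 31.5, 37.8 and 28.1 CPM in RNA in mice 2, 3 and 5 (log2 3.91 ± 0.09, adjusted p = 9.61e-21). Rpl28, of the same subunit, had 277, 347 and 337 CPM in footprints, against 28.9, 27.3 and 21.9 CPM in RNA (log2 3.62 ± 0.12). Every footprint value of these genes exceeded every RNA value. Fau, which encodes a ubiquitin-like protein fused to Rps30, had 383, 455 and 444 CPM in footprints, against 32, 35.4 and 27.2 CPM in RNA (log2 3.76 ± 0.09). Rps23 encodes uS12, the protein that the prolyl hydroxylase Ogfod1 modifies, and had 426, 478 and 520 CPM in footprints, against 120, 108 and 97.3 CPM in RNA (log2 2.13 ± 0.09, adjusted p = 4.78e-12). Ogfod1 itself, at which the scrambled guide is not aimed, had 25.8, 26.2 and 29.8 CPM in footprints, against 24.8, 23.3 and 24.2 CPM in RNA (log2 0.17 ± 0.11, adjusted p = 0.16). Its footprint values all lay above its RNA values, by a difference that did not pass the test. At the low end stood Rps27l, a paralog of Rps27 and a p53 target, with 90.3, 92.1 and 92.7 CPM in footprints, against 266, 226 and 234 CPM in RNA (log2 -1.40 ± 0.08). Rpl21 (log2 -0.42 ± 0.15) and Rps27 (log2 -0.39 ± 0.10) were not called. The typical member shares 97.6% of its coding windows with other transcripts, mostly processed pseudogenes, and no member shares 5% or less. Counts of this class are thus uncertain in both directions, and its rank was not tested against genes with as much shared sequence.

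Rack1 and Eif3f allow a look at genes with such a run that share few windows (they were chosen after their values were seen). Rack1, a scaffold on the small ribosomal subunit that shares 5.5% of windows, had 634, 702 and 763 CPM in footprints, against 325, 350 and 318 CPM in RNA (log2 1.08 ± 0.07, adjusted p = 7.42e-12, percentile 85.1). Eif3f, a subunit of initiation factor eIF3 that shares 1.2%, had 134, 161 and 178 CPM in footprints, against 114, 116 and 102 CPM in RNA (log2 0.50 ± 0.09, percentile 79.3). Both lay above the median gene, and Rack1 alone passed the fold threshold. It missed that threshold without mouse 5 (log2 0.98) and with counts of pseudogenes added (log2 0.99). Over all genes with little shared sequence, those with a run of at least 8 pyrimidines had a median of -0.77 (n = 1273) and those without one -0.88 (n = 7019).

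Elongation factors and other known TOP mRNAs followed the ribosomal proteins: 10 of 14 were called high (71.4% beside 11.5%) and 0 low (beside 39.6%). Their median was 1.45 (percentile 87.5), and they took 1.24 ± 0.109% of protein-coding footprint counts and 0.437 ± 0.0172% of RNA counts. Eef1a1, which brings aminoacyl-tRNA to the ribosome, had 4318, 4785 and 5509 CPM in footprints, against 839, 866 and 730 CPM in RNA (log2 2.58 ± 0.10, adjusted p = 1.41e-15, 89.4% shared). Eef2, which moves the ribosome along the mRNA, had 1182, 1473 and 1462 CPM in footprints, against 297, 384 and 281 CPM in RNA (log2 2.10 ± 0.09, 31.6% shared). Vim, an intermediate filament gene counted among TOP mRNAs, shares only 1% of its windows and had 836, 812 and 948 CPM in footprints, against 190, 212 and 187 CPM in RNA (log2 2.14 ± 0.08, adjusted p = 1.39e-16). All 3 genes were higher in footprints in each mouse. Tpt1, a growth-related protein, averaged 352 ± 42.8 CPM in footprints and 126 ± 4.92 CPM in RNA (log2 1.47 ± 0.08, 100% shared). Pabpc1, the cytoplasmic poly(A)-binding protein, averaged 427 ± 37.7 CPM in footprints and 382 ± 16.4 CPM in RNA (log2 0.16 ± 0.07). Npm1, a nucleolar chaperone, averaged 807 ± 59.5 CPM in footprints and 636 ± 10.4 CPM in RNA (log2 0.34 ± 0.07). Eif5a, which relieves stalled ribosomes, averaged 780 ± 28.2 CPM in footprints and 984 ± 39.1 CPM in RNA (log2 -0.33 ± 0.07), so these 3 genes were not called.

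Of 39 initiation factors 5 were high (12.8% beside 11.5%) and 6 low (15.4% beside 39.6%), and their median of 0.13 lay at percentile 73.1. Eif4a1, the helicase of the cap-binding complex, had 1873, 1629 and 1911 CPM in footprints, against 750, 703 and 668 CPM in RNA (log2 1.35 ± 0.08, 99.2% shared). Eif3d, a cap-binding subunit of eIF3, had 239, 251 and 228 CPM in footprints, against 92.3, 103 and 79.7 CPM in RNA (log2 1.39 ± 0.07) and overlaps an antisense gene, whose reads cannot be told apart if the counting ignored strand. Among the low members, Eif5, the factor that triggers GTP hydrolysis at the start codon, had 186, 144 and 191 CPM in footprints, against 931, 910 and 944 CPM in RNA (log2 -2.43 ± 0.08, adjusted p = 3.09e-17). Eif4ebp1, the mTORC1 target that blocks the cap-binding protein, had 15.9, 23.3 and 17.8 CPM in footprints, against 49.5, 54.5 and 49.5 CPM in RNA (log2 -1.44 ± 0.11). Eif4g2, a scaffold for cap-independent initiation, had 404, 391 and 422 CPM in footprints, against 2577, 2458 and 2721 CPM in RNA (log2 -2.67 ± 0.08). Its mRNA begins translation at a GUG codon, which the annotated coding length does not follow, so its value per length is left out.

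Other parts of the pathway lay nearer the middle. Of 22 aminoacyl-tRNA synthetases 2 were high (9.09% beside 11.5%) and 0 low (beside 39.6%), with a median of -0.18. Of 47 ribosome biogenesis genes 4 were high (8.51%) and 9 low (19.1%), with a median of -0.29. Mitochondrial ribosomal proteins differed in rank from their cytosolic counterparts: 2 of 78 were high (2.56% beside 11.5%) and 22 low (28.2% beside 39.6%). Their median was -0.50 (percentile 57.5), and they took 0.244 ± 0.00291% of protein-coding footprint counts and 0.411 ± 0.0136% of RNA counts. Mrpl23 was highest with 53.4 ± 3.7 CPM in footprints and 12.8 ± 2.12 CPM in RNA (log2 2.07 ± 0.12, 100% shared). Mrpl42 was lowest with 19.1 ± 1.7 CPM in footprints and 130 ± 5.56 CPM in RNA (log2 -2.78 ± 0.10).

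**Figure D2:**
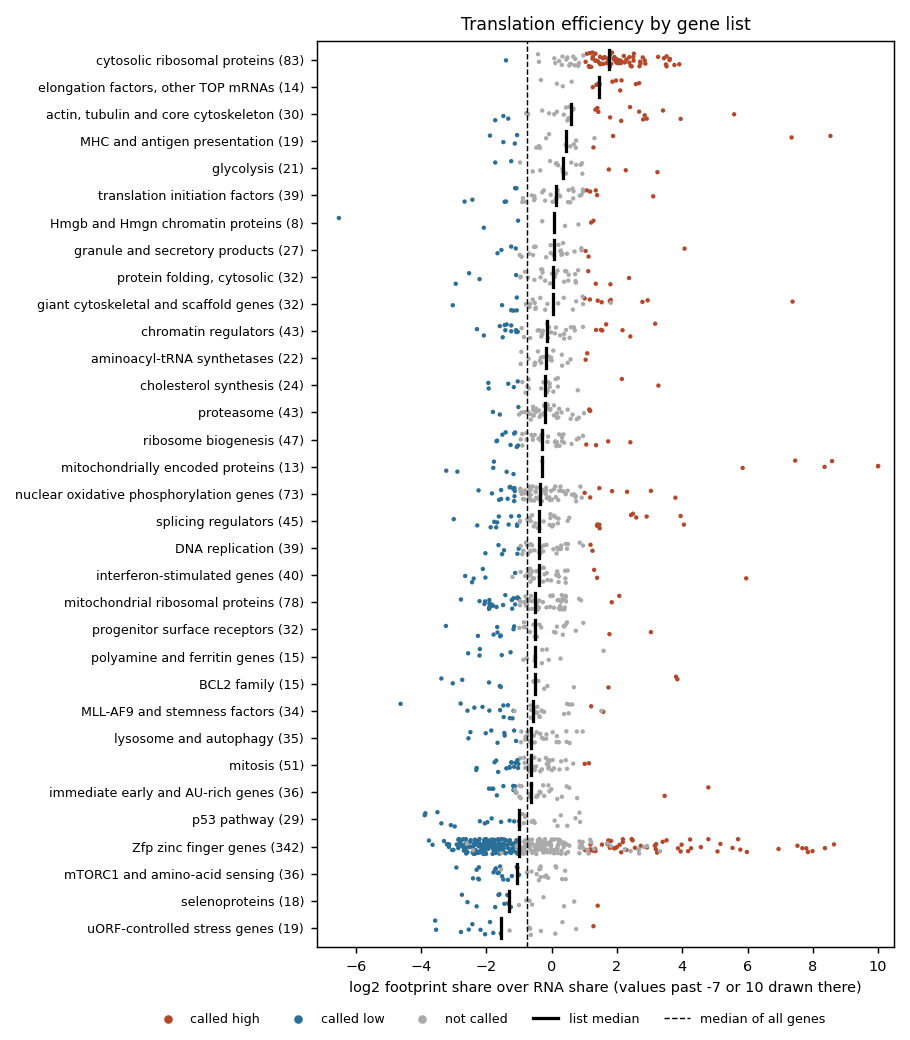
Log2 ratio of footprints to RNA for the genes of each list but histones and the marker lists of other cell types (values past -7 or 10 are drawn there), with 1 point per gene, coloured by its call, a black bar at each list's median and a dashed line at the median of all genes. Cytosolic ribosomal proteins (1.77) and elongation factors (1.45) stand highest, uORF-controlled stress genes (-1.56) and selenoproteins (-1.30) lowest among the lists drawn.

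Subunits of fixed complexes showed footprints more even than mRNA (complexes chosen after the data were seen). Levels here are per length: footprint CPM per kilobase of coding sequence, and RNA CPM per kilobase of exon. In the Arp2/3 complex, which starts actin branches, 5 of 7 subunits shared at most 50% of windows and had 479 to 758 footprint CPM per kilobase and 89.7 to 792 RNA CPM per kilobase. Their coefficient of variation (CV) over subunits was 16.4% in footprints and 102% in RNA. Arpc2, the subunit with most RNA, had 709 footprint and 792 RNA CPM per kilobase. Arpc3, with least RNA, had 642 footprint and 89.7 RNA CPM per kilobase. The CCT chaperonin, which folds actin and tubulin, had a CV of 16.7% in footprints and 73.9% in RNA over 7 of 8 subunits. For the MCM helicase of DNA replication the CVs were 24.2% in footprints and 52.4% in RNA over 5 of 6 subunits. For the core of the proteasome they were 31.3% in footprints and 85% in RNA over 9 of 14 subunits. For eIF3 they were 21.8% in footprints and 48.3% in RNA over 10 of 12 subunits. The RNA values depend on which length is used. With the length of 1 transcript per gene in place of all exons, the RNA CVs were 97.7% for Arp2/3, 46.6% for CCT, 63.1% for MCM, 62.8% for the proteasome core and 27.1% for eIF3. With the coding length, eIF3 had 21.8% in both assays, and the other 4 complexes kept RNA CVs of 50.3 to 64.8%, above their footprint CVs.

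**Figure D3:**
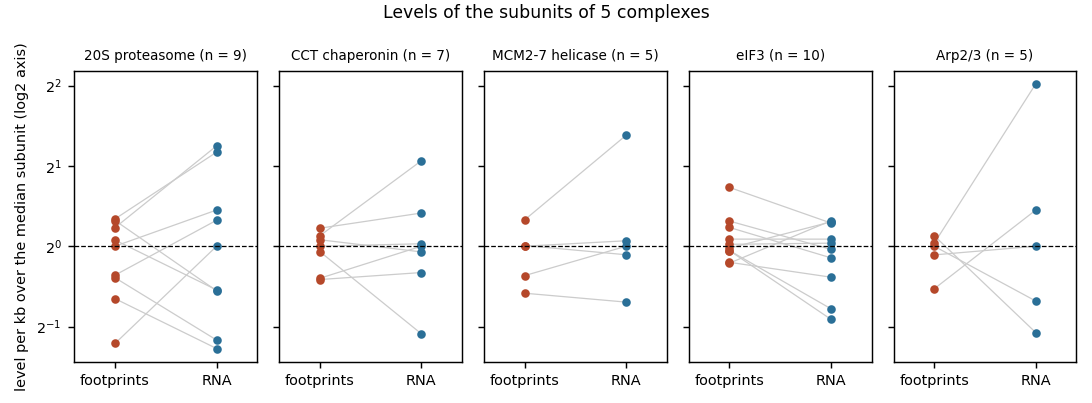
Levels of single subunits relative to the median subunit of each complex (log scale), in footprints per coding kilobase and, to their right, in RNA per kilobase of 1 transcript. Points are subunits averaged over 3 mice, and the footprint points lie closer together than the RNA points in each of the 5 complexes, least so in eIF3.

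The 12 highest ratios by the rule for named genes, which leaves out replication-dependent histones and mitochondrially encoded genes, were Aldoart1, Rpl10-ps3, H2-Q2, H2-Q7, Ftl1-ps1, Tubb2b, Trim17, Tpm3-rs7, Rasl2-9, Srp54a, BC117090 and Eno1b, with log2 ratios from 9.82 down to 7.42. In 11 of them 23.7% to 100% of coding windows occur in other transcripts. Aldoart1, H2-Q2, H2-Q7 and Tubb2b did not reach 0.379 CPM in RNA of all 3 mice. They entered the test by footprints alone, so no direction is read from their ratios. Aldoart1, a testis aldolase with the paralog Aldoa, had 308, 295 and 298 CPM in footprints, against 0.403, 0.422 and 0.176 CPM in RNA. Ftl1-ps1, a copy of the ferritin light chain, had 523, 523 and 499 CPM in footprints, against 1.34, 1.69 and 1.33 CPM in RNA. Footprints on such copies cannot be told from footprints on the parent gene. The remaining gene, Trim17, a ubiquitin ligase, had 1124, 1429 and 1160 CPM in footprints, against 5.45, 6.28 and 3.65 CPM in RNA, and its exons overlap the histone gene Hist3h2a. Hist3h2a had nearly the same footprint values, 1124, 1429 and 1160 CPM, so Trim17 is uncertain as well.

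Replication-dependent histones, which package new DNA in S phase, had a median log2 ratio of 13.5 over 67 tested genes, when genes without RNA counts are set at the floor of 3 counts over the 3 libraries. Of them 44 would not have entered the test by RNA alone, so their calls are not counted as a result. They held 23.1 ± 2.5% of protein-coding footprint counts and 0.0128 ± 0.00146% of RNA counts. Hist1h2bq, an H2B gene, had 5168, 6167 and 4905 CPM in footprints and 0 counts in RNA, at least 285049-fold higher in footprints. Hist1h1a, a linker histone that shares only 0.8% of windows, had 415, 464 and 412 CPM in footprints, against 0.238, 0.295 and 0.176 CPM in RNA (log2 10.82). Hist4h4, an H4 gene that shares 2.5%, had 343, 315 and 338 CPM in footprints, against 0.293, 0.211 and 0.246 CPM in RNA (log2 10.35). Both genes lay under 0.379 CPM in each RNA library and entered the test by footprints alone, so no test is read for them. Most replication-dependent histone mRNAs end in a stem-loop and carry no poly(A) tail, while Smart-seq2 copies polyadenylated RNA. The part this plays in their low RNA values was not tested. Their ratios are not set beside those of other genes. Near-identical copies also had near-identical counts: Hist1h2bq had 79023 and Hist1h2br 79011 footprint counts in all. A footprint may thus be counted in several copies, and the footprint share of the class is uncertain.

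Some genes with high ratios have little shared sequence and no overlapping gene. The examples were chosen after their values were seen and stand for no class. Myh9, the heavy chain of nonmuscle myosin, had 2230, 2242 and 2259 CPM in footprints, against 245, 291 and 353 CPM in RNA (log2 2.94 ± 0.09, adjusted p = 9.12e-18). Midn, which hands nuclear proteins to the proteasome, had 63.3, 63.2 and 57.4 CPM in footprints, against 0.899, 1.29 and 1.44 CPM in RNA (log2 5.67 ± 0.16). Syngr1, a synaptic vesicle protein, had 50.8, 61.6 and 49.4 CPM in footprints, against 0.587, 0.569 and 0.299 CPM in RNA (log2 6.80). In all 3 genes the lowest footprint value exceeded the highest RNA value. Midn and Syngr1 lie under 2 CPM in RNA, where ratios are limited by RNA depth. Syngr1 missed the filter of 0.379 CPM in RNA of mouse 5 and entered the test by footprints alone. No direction is read from its ratio. Hnrnpa0, an RNA-binding protein, averaged 242 ± 50.9 CPM in footprints and 14.4 ± 1.61 CPM in RNA (log2 4.05 ± 0.10). Taf15, another RNA-binding protein, averaged 220 ± 8.05 CPM in footprints and 14.2 ± 1.72 CPM in RNA (log2 3.95 ± 0.08). Acta2, smooth muscle actin, averaged 469 ± 32.3 CPM in footprints and 4.53 ± 1.03 CPM in RNA (log2 6.71 ± 0.10), but its protein is nearly identical to those of Actb and Actg1, and reads with a mismatch could not be separated. Plekhh2, which overlaps an antisense gene, had 3395, 736 and 1665 CPM in footprints, against 28.4, 26 and 24.6 CPM in RNA, so its footprints differed more than 4-fold between mice. Its call (log2 5.96 ± 0.70, adjusted p = 0.0144) was lost without mouse 2 (log2 5.46, adjusted p = 0.0648) and without mouse 5 (log2 5.89, adjusted p = 0.136).

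The genes with most footprint counts included Actb, cytoplasmic actin, with 11709, 11173 and 12039 CPM in footprints, against 1278, 1411 and 2078 CPM in RNA (log2 2.91 ± 0.12, adjusted p = 2.53e-15, 49.2% shared). Ubb, a polyubiquitin gene, had 5933, 6099 and 5792 CPM in footprints, against 214, 242 and 221 CPM in RNA (log2 4.72 ± 0.09, 83.1% shared), and its value is uncertain for its shared sequence. Of 30 core cytoskeleton genes 13 were high (43.3% beside 11.5%) and 3 low (median 0.59, percentile 80.5), and they took 3.83 ± 0.112% of protein-coding footprint counts and 2.03 ± 0.0569% of RNA counts. Of the 8 members with little shared sequence 0 were high and 1 low, beside 6.97% and 42.1% of all such genes. All 13 high calls thus fell on genes with shared sequence and are uncertain. Low members were Tmsb4x, which binds actin monomers, with 1573, 1439 and 1449 CPM in footprints, against 4444, 3893 and 4156 CPM in RNA (log2 -1.48 ± 0.08), and the Arp2/3 subunits Arpc2 (log2 -1.33 ± 0.07) and Arpc5 (log2 -1.73 ± 0.07). Tmsb4x has a very short coding sequence, and its rank was 28.4 by counts and 74.1 per length.

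The 12 lowest ratios by the same rule were Tmem170b, Pogk, Rccd1, Phykpl, Arl5a, Coa5, Ttll3, Cand2, Agbl5, Cacfd1, Fbxw2 and Rnf11, from -6.19 up to -4.49. Tmem170b, a membrane protein gene, had 2.43, 2.71 and 3.68 CPM in footprints, against 211, 196 and 232 CPM in RNA (log2 -6.19 ± 0.13, adjusted p = 3.58e-21). Arl5a, a small GTPase of the trans-Golgi, had 4.67, 6.32 and 4.7 CPM in footprints, against 166, 165 and 151 CPM in RNA (log2 -4.95 ± 0.12). Fbxw2, the substrate-binding part of a ubiquitin ligase, had 4.67, 7.9 and 6.33 CPM in footprints, against 139, 147 and 147 CPM in RNA (log2 -4.54 ± 0.12). RNA exceeded footprints more than 10-fold in each mouse for all 12. Coa5, an assembly factor of cytochrome oxidase, had 8.77, 10.2 and 10 CPM in footprints, against 280, 273 and 299 CPM in RNA (log2 -4.88 ± 0.10), at percentile 1.7 by counts and 16.9 per length. Rnf11, a ubiquitin ligase, stood at percentile 2.0 by counts and 6.1 per length. Phykpl, Rccd1, Pogk, Agbl5, Ttll3 and Cand2 overlap neighbouring genes, so part of their RNA may belong to those.

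Of 34 transcription factors tied to MLL-AF9 and stemness, 2 were high (5.88% beside 11.5%) and 13 low (38.2% beside 39.6%), near the share of all genes for low calls, with a median of -0.58 (percentile 54.9), and they took 0.275 ± 0.00493% of protein-coding footprint counts and 0.496 ± 0.00351% of RNA counts. Hoxa9, the homeobox factor that MLL fusions depend on, had 33.8, 37.2 and 33.9 CPM in footprints, against 205, 206 and 215 CPM in RNA (log2 -2.58 ± 0.08, adjusted p = 1.44e-17). Its partner Meis1 had 95.2, 73.8 and 95 CPM in footprints, against 207, 180 and 206 CPM in RNA (log2 -1.17 ± 0.08, adjusted p = 1.94e-12) and overlaps an antisense gene. RNA was above footprints in every mouse for both. Per length their ranks moved apart, to percentile 29.4 for Hoxa9 and 72.0 for Meis1. Their joined exons span 5580 and 10532 bases, more than the chosen transcript of each holds, so these ranks are uncertain. The high members were Erg and Cebpe. Erg, an ETS factor of stem cells, had 65.7, 63 and 73.3 CPM in footprints, against 21.4, 23.3 and 22.9 CPM in RNA (log2 1.58 ± 0.10, adjusted p = 6.3e-13). Cebpe, a later myeloid factor, had 141, 153 and 146 CPM in footprints, against 58.3, 66.9 and 65.9 CPM in RNA (log2 1.21 ± 0.07). Cebpa, which drives myeloid differentiation and was listed with the genes of upstream reading frames, had 41.4, 42.9 and 43.3 CPM in footprints, against 17.8, 17.6 and 17.2 CPM in RNA (log2 1.28 ± 0.10). All 3 were higher in footprints in every mouse. Myc averaged 273 ± 25.5 CPM in footprints and 189 ± 30.1 CPM in RNA (log2 0.54 ± 0.07, percentile 79.7) and was not called. Kmt2a, the intact partner of the fusion gene, averaged 34 ± 2.6 CPM in footprints and 144 ± 3.34 CPM in RNA (log2 -2.08 ± 0.08). Whether reads of the fusion transcript are among the counts of Kmt2a was not tested.

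Of 32 surface receptors of progenitors 2 were high (6.25% beside 11.5%) and 9 low (28.1% beside 39.6%), with a median of -0.51. Cxcr4, the chemokine receptor that holds leukemia cells in marrow, had 567, 563 and 661 CPM in footprints, against 69.7, 72.3 and 75.9 CPM in RNA (log2 3.04 ± 0.07, adjusted p = 4.8e-20, percentile 93.1 by counts and 90.6 per length). Il3ra, the alpha chain of the IL-3 receptor, had 38.6, 38.2 and 46.4 CPM in footprints, against 10.2, 14.4 and 11.9 CPM in RNA (log2 1.77 ± 0.12). These 2 receptors were the high members. Kit, the receptor of SCF, had 137, 139 and 178 CPM in footprints, against 244, 241 and 302 CPM in RNA (log2 -0.79 ± 0.07, percentile 48.7), near the median gene. Cd33, a sialic-acid-binding lectin of myeloid cells, had 172, 178 and 202 CPM in footprints, against 1648, 1676 and 1889 CPM in RNA (log2 -3.24 ± 0.08, adjusted p = 1.09e-19, percentile 4.7). Cd38, a marker of differentiation, averaged 0.754 ± 0.145 CPM in footprints and 3.65 ± 0.608 CPM in RNA (log2 -2.26 ± 0.44). Cd33 and Cd38 were among the 3 lowest of the list by the rule for named genes.

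Granule and secreted myeloid products lay somewhat above the middle: of 27, 3 were high (11.1% beside 11.5%) and 4 low (14.8% beside 39.6%). Their median was 0.06 (percentile 71.7), and they took 2.62 ± 0.0367% of protein-coding footprint counts and 2.94 ± 0.11% of RNA counts. Mpo, the myeloperoxidase of azurophil granules, had 636, 854 and 516 CPM in footprints, against 492, 848 and 373 CPM in RNA (log2 0.28 ± 0.08). Mouse 3 was highest and mouse 5 lowest for Mpo in both assays. Elane, neutrophil elastase, had 1842, 1831 and 1600 CPM in footprints, against 1412, 1687 and 1223 CPM in RNA (log2 0.30 ± 0.08). Camp, a cathelicidin, had 490, 631 and 536 CPM in footprints, against 247, 318 and 242 CPM in RNA (log2 1.04 ± 0.07, adjusted p = 3.55e-12). Its call was lost without mouse 5 (log2 0.99) and with counts of pseudogenes added (log2 0.96). Lyz1, a lysozyme, was high with 287 ± 33.4 CPM in footprints and 17.1 ± 1.31 CPM in RNA (log2 4.07 ± 0.08), and its near copy Lyz2 was low with 670 ± 89.9 CPM in footprints and 1944 ± 186 CPM in RNA (log2 -1.54 ± 0.08). They share 42.1% of windows, so this pair is uncertain. S100a8, the gene with most RNA counts, had 3331, 3282 and 3513 CPM in footprints, against 7113, 6656 and 6245 CPM in RNA (log2 -0.98 ± 0.09). Ms4a3, a marker of granulocyte and monocyte progenitors, had 83.8, 98.2 and 83.7 CPM in footprints, against 269, 291 and 276 CPM in RNA (log2 -1.66 ± 0.07, adjusted p = 3.13e-15). Per length the list ranked at percentile 52.3.

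**Figure D4:**
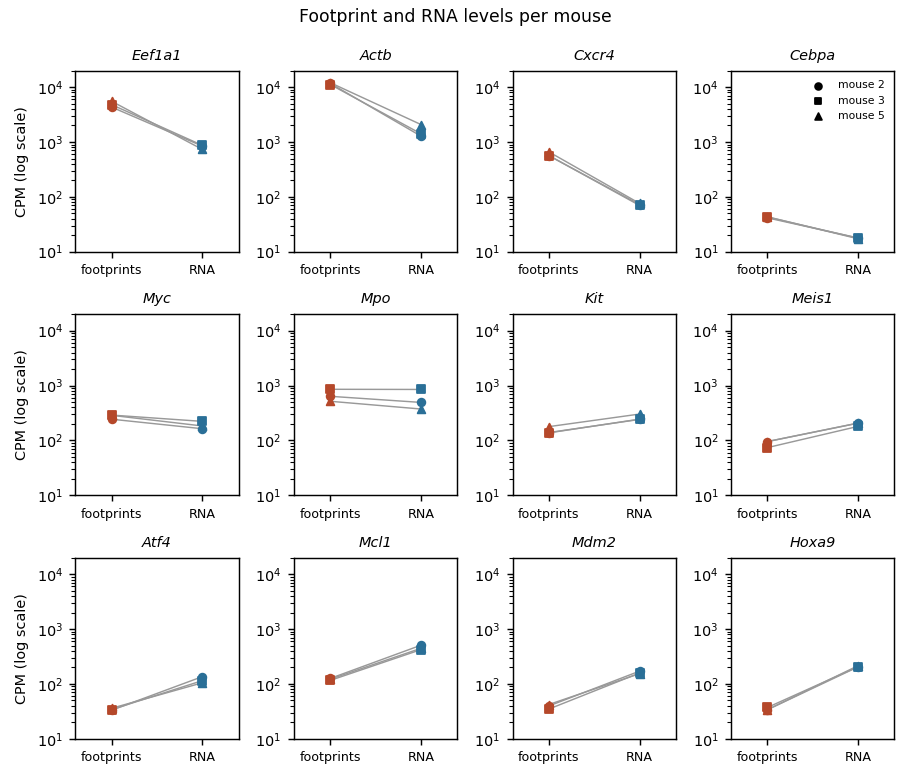
Footprint CPM (left) and RNA CPM (right) of 12 genes in mice 2, 3 and 5, on a log scale, with lines joining the libraries of a mouse. Eef1a1, Actb, Cxcr4 and Cebpa drop towards RNA in each mouse, Myc and Mpo change little, and Kit, Meis1, Atf4, Mcl1, Mdm2 and Hoxa9 climb towards RNA.

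Stress genes under control of upstream open reading frames had the lowest median of the 40 lists by counts. Of 19 tested, 1 was high and 10 low (52.6% beside 39.6% of all genes), with a median of -1.56 (percentile 26.5), and they took 0.0588 ± 0.00119% of protein-coding footprint counts and 0.149 ± 0.0025% of RNA counts. The start codons of genes at both ends are shown first, with 6 bases before and 1 base after the ATG, which is in capitals. A purine 3 bases before the ATG and a G after it are the letters known to favour initiation.
Actb: ttcgccATGg
Eef1a1: gcaaaaATGg
Eef2: gccaccATGg
Cebpa: tcccccATGg
Atf4: cacaacATGa
Mdm2: aggccaATGt
Eif5: gccaaaATGt
Hoxa9: actgcaATGg
The first 4 genes were called high and the last 4 low. Over all genes with little shared sequence the medians were -0.81 with both letters (n = 4618), -0.86 with the purine only (n = 4155), -1.05 with the G only (n = 767) and -0.97 with neither (n = 688).

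Atf4, the transcription factor of the integrated stress response, had 33.2, 34.1 and 36 CPM in footprints, against 136, 115 and 105 CPM in RNA (log2 -1.79 ± 0.09, adjusted p = 5.66e-14). Its annotated leader of 594 bases holds 3 upstream ATGs. The second, gccaccATGg, opens 3 codons at 196 bases before the main start, and the third, taagccATGg, opens 59 codons at 97 bases before it and runs past it in another frame. Ddit3, a death-promoting factor downstream of Atf4, had 3.73, 1.13 and 1.84 CPM in footprints, against 23.9, 28.4 and 29 CPM in RNA (log2 -3.54 ± 0.23, adjusted p = 5.04e-11). Its leader holds 2 upstream ATGs, of 34 and 31 codons. Tmem184c, a membrane protein with upstream reading frames, had 8.77, 5.64 and 8.37 CPM in footprints, against 90.1, 84.8 and 97.1 CPM in RNA (log2 -3.57 ± 0.12). Mief1, a regulator of mitochondrial fission whose leader encodes a second protein, had 9.7, 9.26 and 7.97 CPM in footprints, against 59.1, 64.9 and 61.3 CPM in RNA (log2 -2.78 ± 0.12). All 4 were lower in footprints in every mouse. Cebpa, the high member, has 1 upstream ATG of 5 codons at 25 bases before the main start, ctcgccATGc. Slc3a2, an amino acid transporter chain with 0 upstream ATGs, averaged 73.8 ± 5.19 CPM in footprints and 58.9 ± 4.44 CPM in RNA (log2 0.33 ± 0.09). Counts per gene do not separate footprints of the leader from those of the coding sequence, so footprints on upstream frames are held in the gene's value.

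Genes of polyamine and iron metabolism, whose mRNAs are translated in answer to those metabolites, had 0 high and 5 low of 15 (33.3% beside 39.6%), with a median of -0.52 at percentile 56.8. The low members are given first. Azin1, an inhibitor of antizyme, had 71.7, 61.4 and 75.4 CPM in footprints, against 339, 307 and 319 CPM in RNA (log2 -2.21 ± 0.08). Sat1, which acetylates polyamines, had 64, 60.7 and 65.2 CPM in footprints, against 418, 323 and 380 CPM in RNA (log2 -2.56 ± 0.08). Fth1, the ferritin heavy chain with an iron-responsive element in its leader, had 355, 284 and 357 CPM in footprints, against 837, 754 and 781 CPM in RNA (log2 -1.26 ± 0.08, adjusted p = 5.47e-13). In these 3 genes RNA exceeded footprints in every mouse. Oaz1, the antizyme made by frameshifting, averaged 186 ± 5.22 CPM in footprints and 155 ± 10.9 CPM in RNA (log2 0.27 ± 0.07). Odc1, the rate-limiting enzyme of polyamine synthesis, averaged 88.1 ± 6.42 CPM in footprints and 109 ± 7 CPM in RNA (log2 -0.30 ± 0.08) and has 2 upstream ATGs. Amd1, the other decarboxylase of the pathway, averaged 45.8 ± 7.63 CPM in footprints and 65.5 ± 4.26 CPM in RNA (log2 -0.52 ± 0.10), with 1 upstream ATG of 6 codons, cacagtATGg. Oaz1, Odc1 and Amd1 lay between percentile 56.8 and 75.6 and were not called.

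Selenoproteins, which read a UGA codon as selenocysteine, had 1 high (5.56% beside 11.5%) and 10 low (55.6% beside 39.6%) of 18. Their median was -1.30 (percentile 33.5), and they took 0.148 ± 0.00734% of protein-coding footprint counts and 0.366 ± 0.0236% of RNA counts. Selenof, a folding factor of the endoplasmic reticulum, had 73.7, 51.9 and 68.6 CPM in footprints, against 466, 400 and 432 CPM in RNA (log2 -2.75 ± 0.08, adjusted p = 2.46e-18). Selenop, the plasma selenium carrier, had 14.2, 12.6 and 19.4 CPM in footprints, against 93.1, 87.5 and 95.5 CPM in RNA (log2 -2.58 ± 0.11). Gpx3, a secreted glutathione peroxidase, had 44, 39.7 and 34.5 CPM in footprints, against 203, 190 and 190 CPM in RNA (log2 -2.30 ± 0.08). All 3 were at least 4-fold lower in footprints in each mouse. Msrb1, a methionine sulfoxide reductase, was the high member with 181, 172 and 193 CPM in footprints, against 66.6, 63.3 and 76.4 CPM in RNA (log2 1.41 ± 0.07, adjusted p = 3.73e-14). Gpx4, which guards membranes against lipid peroxides, averaged 101 ± 4.78 CPM in footprints and 63.1 ± 6.42 CPM in RNA (log2 0.69 ± 0.08). Per length the list ranked at percentile 42.8, nearer the middle.

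In the p53 pathway 0 of 29 genes were high and 14 low (48.3% beside 39.6%), with a median of -0.99 (percentile 42.7). Mdm2, the ubiquitin ligase of p53, had 39.6, 34.8 and 42.1 CPM in footprints, against 171, 158 and 154 CPM in RNA (log2 -2.05 ± 0.09, adjusted p = 1.07e-15). Mdm4, its partner, had 16.8, 15.6 and 17.8 CPM in footprints, against 243, 256 and 246 CPM in RNA (log2 -3.89 ± 0.09). Ccng1, a cyclin induced by p53, had 21.5, 18.7 and 25.1 CPM in footprints, against 362, 304 and 294 CPM in RNA (log2 -3.87 ± 0.10). These 3 were lower in footprints in each mouse, while Trp53 itself averaged 170 ± 7.39 CPM in footprints and 103 ± 14.3 CPM in RNA (log2 0.73 ± 0.07, percentile 82.1). In the BCL2 family 3 of 15 were high (20% beside 11.5%) and 6 low (40% beside 39.6%), with a median of -0.52 at percentile 56.8. Mcl1, a short-lived survival factor of myeloid cells, had 126, 116 and 122 CPM in footprints, against 508, 422 and 446 CPM in RNA (log2 -1.92 ± 0.07, adjusted p = 1.76e-16). Bcl2, the target of venetoclax, had 12.3, 7.9 and 7.97 CPM in footprints, against 70.3, 83.2 and 80.5 CPM in RNA (log2 -3.03 ± 0.14), with 11 upstream ATGs in an annotated leader of 1394 bases. The killer proteins split: Bcl2l11 averaged 4.93 ± 0.913 CPM in footprints and 32.9 ± 2.71 CPM in RNA (log2 -2.74 ± 0.15) and Pmaip1 11 ± 1.14 CPM in footprints and 115 ± 17.6 CPM in RNA (log2 -3.38 ± 0.11), both low, and Bak1 averaged 50.1 ± 5.07 CPM in footprints and 3.51 ± 0.666 CPM in RNA (log2 3.85 ± 0.15), high. Bak1 overlaps Ggnbp1, so its value is uncertain.

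The mTORC1 pathway, which senses amino acids and controls TOP mRNAs, had 0 high and 19 low of 36 genes (52.8% beside 39.6%), with a median of -1.06 (percentile 40.4). Rps6kb1, its S6 kinase, had 22.6, 18.1 and 20.2 CPM in footprints, against 108, 114 and 104 CPM in RNA (log2 -2.41 ± 0.10, adjusted p = 8.01e-16). Seh1l, part of the complex that relays amino acid supply, had 48.3, 47.2 and 67 CPM in footprints, against 273, 252 and 268 CPM in RNA (log2 -2.30 ± 0.09). Mtor itself averaged 37.9 ± 4.84 CPM in footprints and 28.7 ± 4.06 CPM in RNA (log2 0.41 ± 0.12), at percentile 77.9 by counts and 48.3 per length. The list's median stood at percentile 44.8 per length.

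Of 45 splicing regulators 10 were high (22.2% beside 11.5%) and 12 low (26.7% beside 39.6%). Of the 22 with little shared sequence 2 were high and 8 low, beside 6.97% and 42.1% of all such genes. Clk1 and Clk4, the kinases of SR proteins, whose transcripts often keep introns, stood at percentiles 12.5 and 5.9. Clk1 had 67.7, 44.7 and 72.7 CPM in footprints, against 311, 256 and 323 CPM in RNA. Clk4 had 33, 23.9 and 31.3 CPM in footprints, against 234, 221 and 249 CPM in RNA. At the other end Hnrnpa1, a splicing repressor that is also a TOP gene, had 862, 850 and 981 CPM in footprints, against 139, 138 and 143 CPM in RNA (log2 2.68 ± 0.07, 84.2% shared). Srsf3, an SR protein, averaged 272 ± 6.05 CPM in footprints and 566 ± 32.2 CPM in RNA (log2 -1.06 ± 0.07), but ranked at percentile 86.2 per length. Its joined exons span 7899 bases, more than its chosen transcript holds, so this rank is uncertain. Of 43 chromatin regulators 7 were high (16.3% beside 11.5%) and 12 low (27.9% beside 39.6%). Chd4, the remodeler of the NuRD complex, had 418, 375 and 397 CPM in footprints, against 74.1, 70.1 and 79.8 CPM in RNA (log2 2.41 ± 0.07, adjusted p = 2.6e-18). Among 342 Zfp genes, zinc finger factors that mostly repress transposons, 54 were high (15.8% beside 11.5%) and 166 low (48.5% beside 39.6%). Their median lay at percentile 42.4. Their high members share much sequence: of 201 with little of it, 16 were high and 107 low, beside 6.97% and 42.1% of all such genes. The highest members, Zfp986, Zfp968 and Zfp965, had at most 0.0422 CPM in RNA and entered the test by footprints alone.

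Metabolic and folding genes lay above the median gene. Of 21 glycolysis genes 3 were high (14.3% beside 11.5%) and 2 low (9.52% beside 39.6%), with a median of 0.34 (percentile 76.8). Pgam1, a phosphoglycerate mutase, had 743, 694 and 771 CPM in footprints, against 79.9, 81.4 and 72.1 CPM in RNA (log2 3.24 ± 0.08, 100% shared). Gapdh, with many pseudogenes and 100% shared windows, had 108, 113 and 118 CPM in footprints, against 365, 425 and 343 CPM in RNA (log2 -1.73 ± 0.08). Both values are uncertain. The 11 members with little shared sequence had a median of 0.20. Of these 0 were high and 1 low, beside 6.97% and 42.1% of all such genes. Cytosolic folding genes had a median of 0.05, with 4 high and 4 low of 32 (12.5% each). Hsp90ab1, a constitutive chaperone, averaged 2296 ± 89.3 CPM in footprints and 906 ± 100 CPM in RNA (log2 1.35 ± 0.08, 24.6% shared). Hspa8, its partner of the HSP70 family, averaged 2890 ± 184 CPM in footprints and 565 ± 98.6 CPM in RNA (log2 2.37 ± 0.09, 95.5% shared). Of 43 proteasome genes 3 were high and 3 low (6.98% each), and of 24 cholesterol synthesis genes 2 were high (8.33%) and 5 low (20.8%). Lysosome and autophagy genes had 0 high and 9 low of 35 (25.7% beside 39.6%), with their median at percentile 53.9. Among the low members, Becn1, which starts autophagosomes, averaged 34.9 ± 4.56 CPM in footprints and 204 ± 5.31 CPM in RNA (log2 -2.55 ± 0.09) and overlaps Cntd1. Atg5, which lipidates the autophagosome membrane, averaged 23.7 ± 1.6 CPM in footprints and 96.5 ± 1.97 CPM in RNA (log2 -2.02 ± 0.09).

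Of 73 nuclear genes of the respiratory chain 7 were high (9.59% beside 11.5%) and 13 low (17.8% beside 39.6%). Their median was -0.35 by counts (percentile 61.9) and -0.89 per length (percentile 65.1). Ndufs7, a complex I subunit with no shared windows, had 456, 353 and 454 CPM in footprints, against 49.7, 58.5 and 45.6 CPM in RNA (log2 3.04 ± 0.15, adjusted p = 1.58e-06). Sdhd, an anchor of complex II, had 55.8, 58 and 53.9 CPM in footprints, against 291, 248 and 255 CPM in RNA (log2 -2.24 ± 0.08, adjusted p = 7.79e-17). Of 13 genes of mitochondrial DNA, translated inside the organelle, 6 were high (46.2% beside 11.5%) and 6 low (46.2% beside 39.6%). Among the high genes, mt-Nd4l and mt-Atp8 reached at most 0.0351 and 0.14 CPM in RNA and entered the test by footprints alone. The middle 50% of the list lay between -1.77 and 8.36. Its median of -0.29 by counts (percentile 63.5) thus stands for neither end. Per length the median was -2.61 (percentile 18.1). No difference from the nuclear genes was tested, and 12 of the 13 share sequence with other genes. mt-Cytb, of complex III, had 391, 389 and 411 CPM in footprints, against 3018, 2746 and 3041 CPM in RNA (log2 -2.89 ± 0.08). mt-Nd1, which shares no window, had 137, 156 and 164 CPM in footprints, against 1388, 1329 and 1560 CPM in RNA (log2 -3.23 ± 0.08, adjusted p = 2.03e-19). mt-Co2, a subunit of cytochrome oxidase, had 341, 423 and 418 CPM in footprints, against 0.825, 0.949 and 1.26 CPM in RNA, with 100% of windows shared with nuclear copies. Whether mitochondrial ribosomes are caught by this protocol as well as cytosolic ones was not tested.

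Across genes the ratio moved with base composition and, less, with the leader. Among genes with little shared sequence the median was -1.71 at a coding GC content under 40% (n = 113), -1.41 at 40 to 45%, -1.13 at 45 to 50%, -0.81 at 50 to 55%, -0.51 at 55 to 60% and -0.42 at 60% or more (n = 1307). The order was the same in each mouse and per length, where it ran from -2.54 to -1.40. Spearman's rho over genes was 0.239 by counts and 0.146 per length. The points share 6 libraries, and whether amplification or sequencing of the libraries depends on GC content was not tested. By the number of upstream ATGs in the annotated leader, the median was -0.72 with 0 (n = 4811), -0.94 with 1, -0.95 with 2, -1.05 with 3 or 4, and -1.21 with 5 or more (n = 802), again with rho of only -0.109 by counts and -0.0797 per length. Within the class of 5 or more stood Hoxa9 with 14, Bcl2 with 11 and Eif5 with 5 upstream ATGs.

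Length and RNA level behaved otherwise. By counts the median was -1.51 for coding sequences under 500 bases and -0.18 for those of 4000 or more, with each class above the one before it. Per length these classes had -1.41 and -1.61, and rho was 0.241 by counts and -0.0358 per length. By counts the median was -0.49 with a 3′ untranslated region under 250 bases and -1.16 at 2000 to 4000 bases, while per length the longest class, 4000 bases or more, had -0.95, the highest of the 6 classes. Genes under 2 CPM in RNA had a median of 0.51 (n = 2078), but 1700 of all 2789 such genes would not have entered the test by RNA alone, so no direction is read from them. From 2 to 10 CPM up to 250 CPM or more the median went from -0.93 to -1.22.

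**Figure D5:**
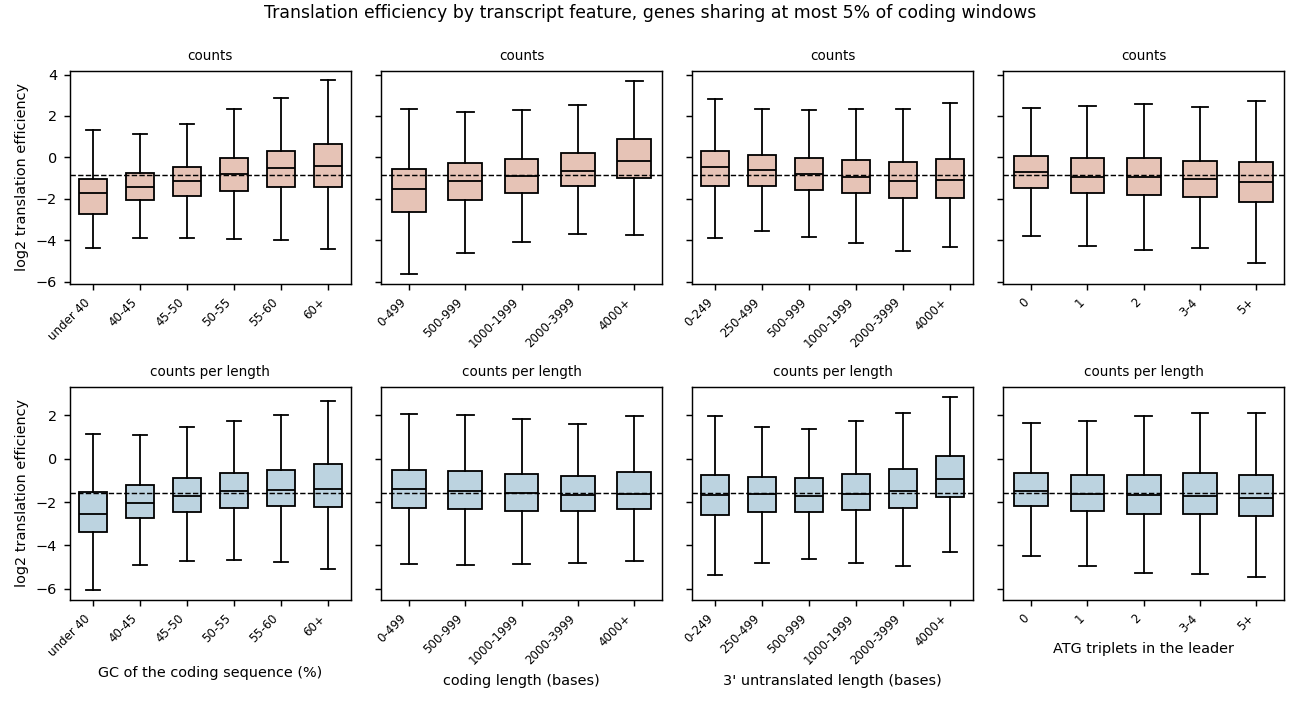
Box plots of the log2 ratio over genes with little shared sequence by coding GC content, coding length, 3′ untranslated length and upstream ATGs, by counts (top) and per length (bottom). Medians climb with GC content on both scales, from -1.71 to -0.42 by counts, while the order by coding length holds by counts only. By 3′ untranslated length, medians by counts fall to -1.16 at 2000 to 4000 bases and are -1.11 in the longest class. Per length the longest class is highest.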

How the data were processed

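Counts are per gene and library as deposited. Per the labels' protocols, the lysate of sorted cells was split between Smart-seq2 and RNase 1 footprints. Per the submitters' processing notes, the authors used cutadapt, Bowtie2, STAR, SAMtools and featureCounts with GRCm38 and mm10. Versions, and how reads on either strand or with several matches were counted, are not given in the sources used here. Symbols, gene types and lengths came from a GRCm38 annotation that held 55227 of 55487 deposited identifiers.

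Footprint and RNA counts of 3 mice were compared with edgeR 4.0.16 in R 4.3.3 (robust quasi-likelihood test, assay with mouse as a block, 2 residual degrees of freedom, filterByExpr at 10 counts), on 21974 protein-coding genes and library sizes equal to protein-coding totals, with Benjamini-Hochberg adjustment over all 13614 genes tested. The biological coefficient of variation was 0.0663. A CPM is a count scaled to a common protein-coding total. Precision rests on depths of 7.9 to 9.47 M in footprints and 49.18 to 58.93 M in RNA, and floors (3 counts) cover counting error only.

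The library numbers pair the assays, since the labels' protocols split 1 lysate per mouse. After group means were removed, footprints correlated with RNA of their own mouse at r = 0.261, 0.359 and 0.231 and with that of other mice at -0.242 to 0.00276 (7139 genes). No 2 libraries of a group agreed within sampling noise (chi-square per degree of freedom at least 3.3 in footprints and 26.4 in RNA).

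Shared sequence is the percent of 28-base windows of a coding sequence that occur in other genes' annotated transcripts. Named genes were the 12 highest and 12 lowest called ratios (10 counts in every library, a mean of 20 CPM in the higher assay, the same direction in all 3 mice, predicted symbols, replication-dependent histones and mitochondrially encoded genes left out), up to 3 called genes each way per list, the 5 most abundant genes per assay and 27 fixed genes. Members and lists were chosen with earlier results of these data known. The test was tried on simulated counts. Alternatives were TMM scaling, DESeq2 1.42.0, other count filters, no block, leaving out each mouse, counts per length, pseudogene counts added, totals without histone and mitochondrial genes, and, chosen after seeing the data, genes with at most 5% shared windows. Start-site windows came from RefSeq tables of GRCm38.p6. Left out were all other libraries of the series, and a few genes that meet the rule are not reported here.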

Additional observations from a re-analysis of the deposited data

Results flagged for a closer look

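Counts outside protein-coding genes, which the ratios do not use, were common in footprints. Annotated pseudogenes took 25.1 ± 0.416% of all footprint counts and 0.38 ± 0.0398% of all RNA counts (SD, n = 3 mice), with 25, 24.8 and 25.6% in footprints of mice 2, 3 and 5 and 0.357, 0.426 and 0.357% in their RNA. All genes that are not protein-coding together took 44.5 ± 1.54% of footprint counts and 3.41 ± 0.133% of RNA counts. Both were picked out as signal in data outside the comparison that lies above the level in the RNA libraries. Adding the counts of pseudogenes to the gene they are named after gave 1531 high and 5742 low genes.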

How the results depend on the processing

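High genes numbered 1565 as reported, 2655 under TMM scaling, 3006 with DESeq2 and 666 with at least 50 counts in every library, where fewer genes were tested (7139). Low genes numbered 5387 as reported and 2869, 2597 and 2635 under these settings. A fit of genes with at most 5% shared windows, which removes the counts of all other genes from the totals, gave 1553 high and 2280 low genes, with the median gene at -0.10. All 1565 high genes remained high under TMM and DESeq2. These settings moved the median gene up from -0.75 to -0.04 and 0.03. Such a shift keeps high genes high, so this overlap is not a test of the calls. Without the replicate block 1552 were high and 5437 low. Leaving out 1 mouse gave 1194 to 1672 high and 5201 to 5435 low genes. Counts per length gave 1131 and 8004, no filter 1351 and 5291, and totals without histone and mitochondrial genes 1987 and 3970. Per length, where the median gene lies at -1.45, the sign turned for Camp (-0.73), Cebpe (-0.56), Elane (-1.72), Hsp90ab1 (-0.51), Mki67 (-1.23), Mpo (-1.37), Mtor (-1.51) and Srsf3 (0.62). Exon lengths join all annotated transcripts of a gene, and the part this plays in these values was not tested. Of 1462 values of 128 genes under alternatives, 1366 kept direction and side of the threshold, 50 lost the call and 38 gained it. Of 404 medians of 34 lists, taken relative to the median of all genes, 300 moved by less than the spread between mice and 13 took the other sign. Ratios of genes under 2 CPM in RNA are limited by RNA depth and by the filter.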

Other observations

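Long noncoding RNAs gave a view of RNA that is not meant to be translated. Of 142 such genes with at least 5 CPM in RNA and no exon overlapping another gene, 113 (79.6%) had a log2 ratio under -2, against 1816 of 9881 protein-coding genes (18.4%). Their median was -3.74, and that of protein-coding genes at the same RNA level -0.94. 4632427E13Rik had 0.187, 0.226 and 0.409 CPM in footprints, against 109, 102 and 147 CPM in RNA. At the other end Gm10076 had 289, 386 and 321 CPM in footprints, against 11.9, 12.7 and 8.73 CPM in RNA. AI506816 had 417, 444 and 406 CPM in footprints, against 192, 211 and 178 CPM in RNA. These genes were chosen after their values were seen, and their shared sequence was not measured.

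Further gene lists lay near or above the median gene. Percents of high and low calls stand here beside 11.5% and 39.6% of all genes. Of DNA replication genes 2 of 39 were high (5.13%) and 6 low (15.4%), with a median of -0.38 (percentile 61.0). Pcna, the sliding clamp, averaged 616 ± 58.5 CPM in footprints and 259 ± 14.6 CPM in RNA (log2 1.25 ± 0.07, 77.2% shared). Of mitosis genes 2 of 51 were high (3.92%) and 15 low (29.4%), with a median of -0.63 (percentile 53.6). Spc25, of the kinetochore, averaged 45.3 ± 1.85 CPM in footprints and 224 ± 10.1 CPM in RNA (log2 -2.31 ± 0.08), and Cenpa, the centromeric histone, averaged 30.6 ± 1.5 CPM in footprints and 151 ± 8.25 CPM in RNA (log2 -2.30 ± 0.09). Of immediate early and AU-rich genes 2 of 36 were high (5.56%) and 10 low (27.8%), with a median of -0.64 (percentile 53.2). Of interferon-stimulated genes 3 of 40 were high (7.5%) and 6 low (15%), with a median of -0.39 (percentile 60.8). Fosb and Ifitm1, among these high genes, did not reach 0.379 CPM in RNA of all 3 mice and entered the test by footprints alone. Of MHC genes 4 of 19 were high (21.1% beside 11.5%) and 4 low (21.1% beside 39.6%), with a median of 0.43 (percentile 78.2). The 11 members with little shared sequence had a median of -0.08. Of these 0 were high and 3 low, beside 6.97% and 42.1% of all such genes. H2-Q7, among the high genes, also entered the test by footprints alone. B2m, the light chain of class I molecules, averaged 371 ± 15.6 CPM in footprints and 1037 ± 36.8 CPM in RNA (log2 -1.48 ± 0.07). Of Hmgb and Hmgn genes 2 of 8 were high (25%) and 3 low (37.5%), with a median of 0.06 (percentile 70.6). Of giant cytoskeletal and scaffold genes 9 of 32 were high (28.1%) and 6 low (18.8%), with a median of 0.03 (percentile 71.0). Per length their median was -1.42, at percentile 50.9, so the raised rank was seen by counts only. Ahnak2, the highest of these giant genes, had at most 0.0917 CPM in RNA and entered the test by footprints alone. Sptbn1, a spectrin, averaged 47.3 ± 1.03 CPM in footprints and 388 ± 16 CPM in RNA (log2 -3.03 ± 0.08), and Myh9 is the counterpart described above.

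Serp1, a stress-associated protein of the endoplasmic reticulum, was among the 10 genes with most RNA counts and averaged 139 ± 7.75 CPM in footprints and 2617 ± 345 CPM in RNA (log2 -4.23 ± 0.09). Lars2, a mitochondrial leucyl-tRNA synthetase, averaged 2846 ± 341 CPM in footprints and 217 ± 52.2 CPM in RNA (log2 3.73 ± 0.14), and was chosen after its value was seen. Whether all these fragments come from translation of Lars2 was not tested, so its value is uncertain.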
